A study of Drosophila melanogaster with 5 samples.

Results

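Tumors of the fly eye-antennal imaginal disc that carried an Sras mutation and overexpressed Ras were compared with control discs, using 3 of the 5 arrays of the series: Sras mutant 1 with Ras, Sras mutant 2 with Ras and WT control. Each group had 1 array, the array of tumors with Ras overexpression alone was not used, and the members were all genes named alone by a probe set. Each Sras array was set against the WT control array, and a gene was counted where both mutants lay on the same side of WT control by at least 2-fold, a log2 difference of 1.0 or more. The series title places the work among studies of oncogene-induced senescence and of the Fanconi anemia pathway.

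Both tumor groups had an Sras mutation together with Ras overexpression, and the control was a wild-type eye-antennal disc named 79E control in the labels. All animals were larvae of the third instar. Clones were marked with GFP by MARCM, a recombination method that gives a mutant clone its own label inside an otherwise unmarked animal, and that label is recorded for all 3 samples. The sources used here do not give the lesion in each Sras mutant, the form of Ras, the driver of its expression or how many animals were pooled. Because the tumors differ from the control in both Sras and Ras, the effects of the mutation and of Ras overexpression cannot be told apart in this comparison.

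Ras is a small GTPase that passes signals from growth factor receptors to the MAPK cascade, and CAAX proteases, of which the gene Sras encodes one, trim prenylated proteins such as Ras. In imaginal discs, clones with active Ras overgrow, and clones that also lose cell polarity become invasive tumors. Such tumors are known to switch on the stress kinase JNK, to secrete Unpaired cytokines that activate JAK/STAT, and to secrete the hormone Ilp8, which delays metamorphosis. The Fanconi proteins unhook DNA crosslinks, and repair of the resulting breaks draws on recombination and end joining.

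Levels are log2 values after quantile normalization of the 3 arrays, and a pair of differences gives Sras mutant 1 and then Sras mutant 2, each minus WT control. A gene was kept where its highest level was 6.39 or more, the 40th percentile over genes and arrays, and 7618 of 11982 genes passed. No test was possible with 1 array per group, and both comparisons share the WT control array, so their agreement is not independent. The nearest guide to the spread was the difference between the Sras arrays, which had an SD of 0.245 over the kept genes. Control probe sets gave 3′ minus 5′ differences of 0.90, 0.72 and 0.77 for actin in Sras mutant 1, Sras mutant 2 and WT control, of 1.06, 1.05 and 1.13 for Gapdh, of 0.77, 0.87 and 1.10 for eIF-4a and of 0.49, 0.78 and 0.54 for 18S rRNA. Actin and Gapdh varied between arrays by less than that SD, and eIF-4a and 18S rRNA by more.

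Both Sras tumors lay at least 2-fold above WT control for 400 genes, 5.25% of those kept, and at least 2-fold below it for 764 genes, 10.0%. Of the counted genes, 65.6% were lower in the tumors. Sras mutant 1 alone gave 447 higher and 812 lower genes, and Sras mutant 2 alone gave 508 higher and 839 lower genes. No gene passed 2-fold in opposite directions in the tumors. The lower genes had the wider differences, with 163 at least 8-fold lower against 13 at least 8-fold higher in both tumors. Many counted genes reached down to dim values: 132 of the higher genes lay below 6.39 in WT control, and 275 of the lower genes lay below it in both tumors. Among genes with several probe sets past the filter value, every such probe set lay on the same side in 32 of 34 higher genes and in 25 of 31 lower genes. The exceptions were Kank and nrm among the higher genes, and CG13784, SERCA, Strn-Mlck, obst-E, pdm3 and trv among the lower. Every such probe set passed 2-fold in 16 of the 34 higher genes and in 18 of the 31 lower genes.

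The split between higher and lower depended on the scale. The 18 kept genes of eye and antennal identity, which mark the disc itself, had a typical shift of 0.74 and 0.81 above WT control in the tumors. When each array was centred on those genes, the median of all kept genes moved to −0.61 and −0.71, against 0.13 and 0.10 before, 99 genes were higher and 1631 lower, and the share of lower genes was 94.3%. Such centring lowers every difference of a tumor by the same amount. By construction, then, all 99 were among the 400 higher genes, and the 1631 held all 764 lower genes. Differences are given on the quantile scale, and each list median is followed by its identity-centred value. The list counts below stand against shares of 5.25% higher and 10.0% lower over all kept genes. Over all kept genes, 57% lay above WT control in both tumors by any amount and 36.1% below it.

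**Figure D1:**
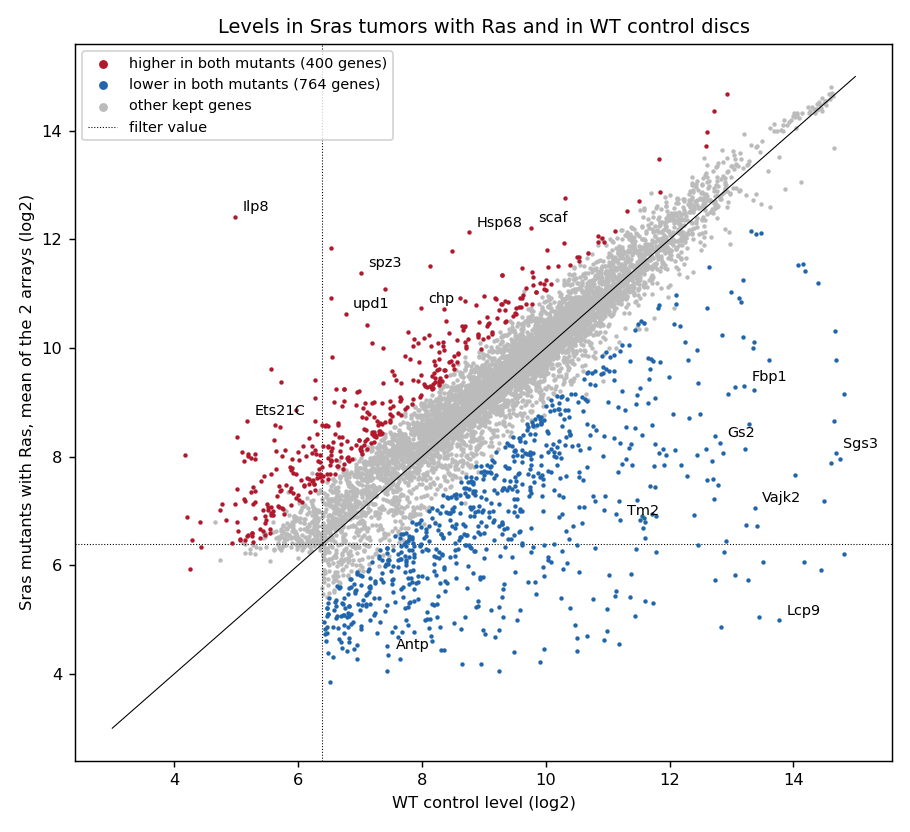
Level of each kept gene in WT control (horizontal axis, log2) against its mean level in the 2 Sras tumors with Ras (vertical axis, log2). Red points are the 400 genes at least 2-fold higher in both tumors, blue points the 764 at least 2-fold lower, grey points the other kept genes, the solid line marks equality and dotted lines the filter value of 6.39. The blue points spread farther from the line than the red ones.

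The genes named in the labels were read next. The transcript of the gene Sras stood at 9.20 in Sras mutant 1 and 9.06 in Sras mutant 2, against 9.56 in WT control, and was not counted. The sources used here do not say whether the label refers to this gene, and a lesion need not alter a transcript, so this level checks no label. The polarity gene scrib stood at 11.56 in Sras mutant 1 and 11.51 in Sras mutant 2, against 10.55 in WT control, with differences of 1.01 and 0.96, just short of the count in mutant 2.

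Kept markers of the disc lay above the filter value in every array, except ct in WT control, and those of several other larval tissues were far lower in the tumors. The 8 kept genes of retinal determination had median levels of 10.35 in Sras mutant 1 and 10.18 in Sras mutant 2, against 9.17 in WT control, and the 10 kept genes of antennal and head identity had 8.81 and 9.12 in the tumors, against 8.54 in WT control. Of 15 kept salivary gland and gut genes, 14 were lower in both tumors and none higher. Their summed level was 11.35 in Sras mutant 1 and 12.88 in Sras mutant 2, against 17.56 in WT control. Of 12 kept muscle genes, 11 were lower, with summed levels of 11.18 and 10.91 in the tumors, against 14.66 in WT control, and the exception was the titin gene sls at 7.83 and 7.94, against 7.24. Of 5 kept fat body genes, 4 were lower, with summed levels of 12.12 and 13.42 in the tumors, against 15.35 in WT control. Larval cuticle genes were lower in 7 of 11 kept cases, with summed levels of 10.58 and 10.41, against 15.55. Below the filter value lay 4 of the salivary gland and gut genes in each tumor, 1 and 3 of the muscle genes and 3 and 5 of the cuticle genes, and none of these in WT control. The labels give the control sample as an eye-antennal disc, a tissue that these lists do not mark. How far they set the lower counts in other lists was not tested, and in whole-tissue RNA fewer cells of a type and less RNA per cell cannot be told apart.

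Among the glue genes, which the salivary gland makes before pupariation, Sgs3 stood at 6.64 in Sras mutant 1 and 9.49 in Sras mutant 2, against 14.69 in WT control. Sgs8 stood at 6.66 in Sras mutant 1 and 9.24 in Sras mutant 2, against 14.76 in WT control. Sgs4 stood at 5.39 in Sras mutant 1 and 8.98 in Sras mutant 2, against 14.49 in WT control. The tumors thus differed from each other here too, with Sras mutant 2 nearer to WT control. Sgs4, Fbp1, Sgs7 and Sgs5 had the widest gaps between the tumors of all counted genes with a name, although the Sgs4 value in Sras mutant 1 lay below the filter value, so its place in that order is not informative. Fbp1, a receptor for storage proteins of the fat body, stood at 7.56 in Sras mutant 1 and 11.03 in Sras mutant 2, against 13.21 in WT control. Only 37 of the counted genes had tumors 2-fold or more apart.

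The muscle genes ran the other way between the tumors, with Sras mutant 2 mostly the lower of the pair. Mlc1, a myosin light chain gene, stood at 8.43 in Sras mutant 1 and 7.65 in Sras mutant 2, against 12.45 in WT control. Tm2, which encodes tropomyosin, stood at 6.97 in Sras mutant 1 and 6.68 in Sras mutant 2, against 11.20 in WT control. The Z-disc gene Zasp66 stood at 7.73 in Sras mutant 1 and 7.41 in Sras mutant 2, against 12.60 in WT control. Every one of these was more than 8-fold lower in both tumors. Lcp9, a larval cuticle gene, had the widest difference among named genes below the filter value in both tumors, with 5.10 in Sras mutant 1 and 4.88 in Sras mutant 2, against 13.77 in WT control. Vajk2, another cuticle gene, stood at 7.02 in Sras mutant 1 and 7.10 in Sras mutant 2, against 13.38 in WT control. Gs2, a glutamine synthetase gene of glia, stood at 8.46 in Sras mutant 1 and 8.05 in Sras mutant 2, against 12.82 in WT control.

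Blood cell genes were lower to a smaller degree, and genes of the neuron and glia list and of the tracheal list did not share one direction. Of 15 kept genes of hemocytes and crystal cells, 5 were lower and 1 higher, with medians of −0.89 and −1.23, or −1.63 and −2.04 after identity centring. The crystal cell gene PPO1, a prophenoloxidase, stood at 9.19 in Sras mutant 1 and 7.98 in Sras mutant 2, against 11.71 in WT control. The higher member was lz, at 8.53 and 8.44 in the tumors, against 7.09 in WT control, a Runx factor that also acts in the eye. Of 12 kept neuron and glia genes 2 were lower (Gs2 and wrapper) and 1 higher (unc-13), and the tracheal list had none of 8 counted.

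**Figure D2:**
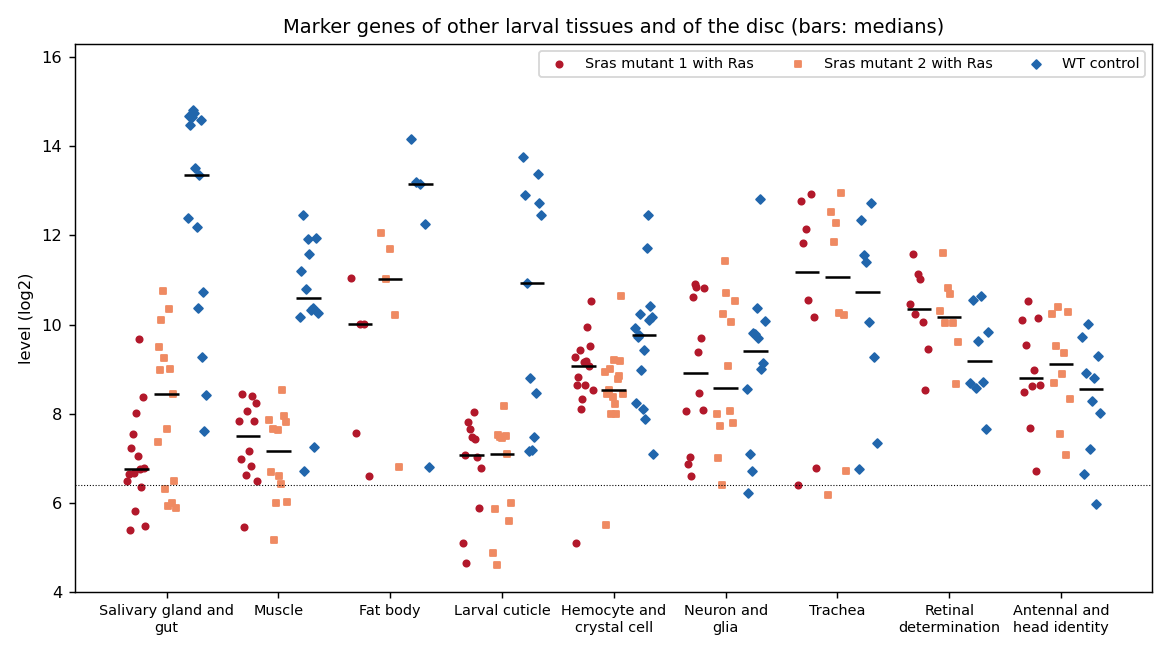
Levels (log2) of the kept marker genes of other larval tissues and of the disc, with circles for Sras mutant 1 with Ras, squares for Sras mutant 2 with Ras and diamonds for WT control. Bars are medians of the members and the dotted line is the filter value of 6.39. Salivary gland and gut, muscle, fat body and larval cuticle medians lie below WT control in both tumors, and the retinal and antennal medians lie above it.

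The secreted signals held the widest difference of all named higher genes. Ilp8, the relaxin-like hormone by which damaged or overgrown discs delay metamorphosis, stood at 12.26 in Sras mutant 1 and 12.58 in Sras mutant 2, against 4.99 in WT control, and the last value is below the filter value. Its differences were 7.26 and 7.58. The gene spz3, which encodes a ligand of the Spätzle family, stood at 11.15 in Sras mutant 1 and 11.63 in Sras mutant 2, against 7.01 in WT control, differences of 4.14 and 4.61. It had the widest difference among named higher genes above the filter value in all 3 arrays.

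The rest of the secreted ligand list did not move as one. Of 17 kept members, 2 were higher and 5 lower in both tumors, and the medians were −0.06 and 0.07 (−0.80 and −0.74 after identity centring), against 0.13 and 0.10 over all kept genes. The lower 5 were Idgf1 to Idgf5, chitinase-like growth factor genes that the fat body also makes. Idgf3 stood at 9.23 in Sras mutant 1 and 9.06 in Sras mutant 2, against 11.47 in WT control, and Idgf1 at 6.62 and 6.60 in the tumors, against 9.57. These genes were lower together with the fat body markers, and the part of that tissue was not tested. ImpL2, a secreted insulin antagonist, stood at 12.55 in Sras mutant 1 and 13.15 in Sras mutant 2, against 11.70 in WT control, which passed 2-fold only in mutant 2.

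JAK/STAT ligands and receptor were higher, and the transducer was not counted. The cytokine gene upd1 stood at 10.39 in Sras mutant 1 and 10.88 in Sras mutant 2, against 6.77 in WT control, differences of 3.63 and 4.11. Its paralog upd2 stood at 8.28 in Sras mutant 1 and 8.90 in Sras mutant 2, against 5.63 in WT control. The receptor gene dome stood at 11.03 in Sras mutant 1 and 11.04 in Sras mutant 2, against 9.84 in WT control. In each of these the tumors lay nearer to each other than to WT control, an outcome that a count on both tumors favors. The repressor gene chinmo, which keeps cells immature, stood at 11.46 in Sras mutant 1 and 11.25 in Sras mutant 2, against 9.29 in WT control. Stat92E, the transcription factor of the pathway, stood at 10.50 in Sras mutant 1 and 10.44 in Sras mutant 2, against 10.15. The list had 4 of 9 kept members higher and none lower, and its medians of 0.71 and 0.65 changed sign to −0.03 and −0.16 after identity centring, where 3 members were still counted as higher.

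The JNK list showed 3 wide differences and many near 0. Ets21C, an ETS factor downstream of JNK, stood at 8.28 in Sras mutant 1 and 9.04 in Sras mutant 2, against 5.18 in WT control. Gadd45, a stress sensor gene, stood at 9.65 in Sras mutant 1 and 10.52 in Sras mutant 2, against 7.20 in WT control. The target scaf, which encodes a secreted protease homolog that dampens JNK, stood at 11.90 in Sras mutant 1 and 12.53 in Sras mutant 2, against 9.76 in WT control. All 3 were higher in Sras mutant 2 than in Sras mutant 1. The feedback phosphatase gene puc stood at 10.25 in Sras mutant 1 and 10.60 in Sras mutant 2, against 9.87 in WT control, and was not counted. The ligand gene egr stood at 9.04 and 8.98 in the tumors, against 9.84 in WT control. Kinases of the cascade lay near WT control, with differences of −0.04 and −0.10 for bsk, the JNK gene itself, and 0.13 and 0.16 for its activator hep. With 3 of 16 kept members higher and none lower, the list had medians of 0.24 and 0.40, and of −0.51 and −0.41 after identity centring.

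Negative feedback genes of EGFR and Ras signaling were the higher members of that list. Argos (aos), a secreted EGF antagonist, stood at 10.46 in Sras mutant 1 and 10.35 in Sras mutant 2, against 8.70 in WT control. Mkp3, the ERK phosphatase gene, stood at 10.12 in Sras mutant 1 and 10.29 in Sras mutant 2, against 9.07 in WT control. The receptor inhibitor kek1 stood at 9.27 in Sras mutant 1 and 9.37 in Sras mutant 2, against 8.27 in WT control. These 3 were counted, and sty (Sprouty), another inhibitor, lay just short with differences of 0.98 and 1.01. The EGF gene spi stood at 11.96 and 12.04 in the tumors, against 11.34 in WT control, and the ETS repressor gene aop at 11.94 and 12.07, against 11.04. The MAPK kinase gene Dsor1 lay at −0.13 and −0.09. Ets65A was the lower member, at 5.53 and 5.21 in the tumors, against 6.62 in WT control, a dim gene. The list medians were 0.58 and 0.67, or −0.16 and −0.14 after identity centring, with 3 of 14 kept members higher and 1 lower.

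In the other growth pathways a few ligands and feedback genes were counted. The BMP ligand gene dpp stood at 9.78 in Sras mutant 1 and 9.92 in Sras mutant 2, against 8.52 in WT control. Its feedback inhibitor Dad stood at 11.50 in Sras mutant 1 and 11.55 in Sras mutant 2, against 10.39 in WT control. The glycosyltransferase gene fng, which modifies Notch, stood at 12.13 in Sras mutant 1 and 12.19 in Sras mutant 2, against 11.12 in WT control. Of the Hippo list the upstream gene kibra was counted, at 7.72 and 7.93 in the tumors, against 6.63 in WT control. The Yorkie targets ex and CycE had differences of 0.89 and 0.96, and of 0.15 and 0.14. Counted as higher were 2 of 10 kept Wingless and Dpp genes, 1 of 8 Notch genes and 1 of 11 Hippo genes, none was lower, and after identity centring none was counted in any of these lists.

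**Figure D3:**
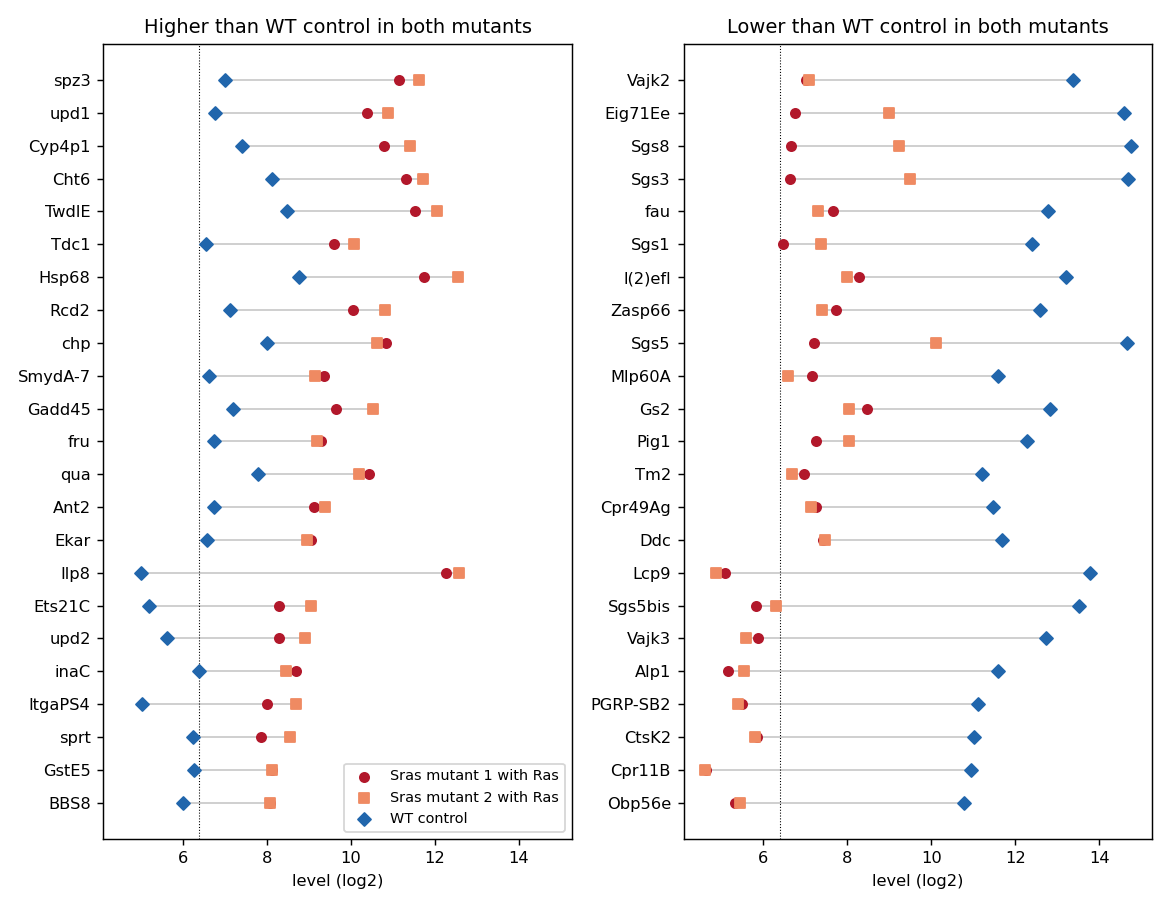
Levels (log2, horizontal axes) of the 23 named higher genes (left panel) and the 23 named lower genes (right panel) in Sras mutant 1 with Ras (circles), Sras mutant 2 with Ras (squares) and WT control (diamonds). The dotted line is the filter value of 6.39, and the last 8 genes of each panel crossed it. The tumors lie close together for most higher genes, and the glue genes Sgs3, Sgs5 and Sgs8 lie farther apart between the tumors.

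Of the kept matrix and adhesion genes, 4 were higher and 1 lower. The integrin alpha gene ItgaPS4 stood at 8.01 in Sras mutant 1 and 8.70 in Sras mutant 2, against 5.02 in WT control. Tiggrin (Tig), an integrin ligand of the matrix, stood at 10.05 in Sras mutant 1 and 10.44 in Sras mutant 2, against 8.12 in WT control. The matrix metalloprotease gene Mmp2 stood at 11.04 in Sras mutant 1 and 11.02 in Sras mutant 2, against 9.84 in WT control. Together with ItgaPS5 these were the higher members of 19 kept, and the integrin alpha genes mew and scb had differences of 0.11 and −0.04, and of −0.04 and 0.36. Col4a1, a collagen IV gene, was the lower one, at 9.08 and 8.84 in the tumors, against 10.10 in WT control, and it also stands in the blood cell list. The list medians were 0.28 and 0.36, or −0.46 and −0.46 after identity centring.

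Apical-basal polarity genes lay above WT control in both tumors in 9 of 11 kept cases, where 57% of all kept genes did, and 1 was counted. The tumor suppressor gene l(2)gl stood at 11.28 in Sras mutant 1 and 11.34 in Sras mutant 2, against 9.79 in WT control, differences of 1.49 and 1.55. The Par3 gene baz had differences of 0.92 and 1.00, and aPKC had −0.02 and −0.16. Junction genes had 1 of 13 counted, the septate junction gene Cont at 12.85 and 12.89 in the tumors, against 11.84 in WT control. The E-cadherin gene shg lay at 9.84 and 9.88 in the tumors, against 8.93. The list medians were 0.59 and 0.67 for polarity and 0.59 and 0.38 for junctions, and they changed sign after identity centring, to −0.15 and −0.14 and to −0.15 and −0.43.

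The Fanconi and crosslink repair genes, the subject named in the title of the series, had 4 of 15 kept members counted as higher and none as lower, where 5.25% and 10.0% of all kept genes were. PolQ, the end-joining polymerase theta gene, stood at 7.86 in Sras mutant 1 and 7.76 in Sras mutant 2, against 6.38 in WT control, a value at the edge of the filter. PolZ1, the catalytic subunit gene of translesion polymerase zeta, stood at 8.73 in Sras mutant 1 and 9.07 in Sras mutant 2, against 7.49 in WT control. FANCI, a subunit of the clamp that marks a crosslink, stood at 8.03 in Sras mutant 1 and 7.89 in Sras mutant 2, against 6.87 in WT control. The nuclease gene slx1 was the remaining one, with 8.33 and 8.19 in the tumors, against 7.18 in WT control. Its difference in Sras mutant 2, 1.01, lay just inside the count.

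The other Fanconi genes lay closer to WT control. Fancd2, the partner of FANCI, stood at 8.83 in Sras mutant 1 and 8.66 in Sras mutant 2, against 7.99 in WT control. The translocase gene Fancm stood at 7.63 in Sras mutant 1 and 7.79 in Sras mutant 2, against 6.86 in WT control. Fancl, the ubiquitin ligase gene of the pathway, stood at 7.67 in Sras mutant 1 and 7.53 in Sras mutant 2, against 7.09 in WT control. None of these reached 2-fold in either tumor. The nuclease genes mei-9 and Ercc1 had differences of 0.71 and 0.62, and of 0.80 and 0.58. Brca2, the recombination mediator, had 0.60 and 0.53, the crosslink nuclease gene Snm1 had 0.57 and 0.52, and the polymerase genes Rev1 and PolZ2 had 0.58 and 0.50, and 0.52 and 0.35. Usp1, which removes ubiquitin from the clamp, had 0.22 and 0.09. The nuclease gene mus81 was the 1 member below WT control in both tumors, at 7.83 and 7.86, against 7.96. The list medians of 0.71 and 0.58 became −0.03 and −0.24 after identity centring, and no member was then counted.

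The break repair genes that were counted belong to end joining and to the Mre11 complex. Irbp, the fly Ku70, stood at 9.26 in Sras mutant 1 and 9.45 in Sras mutant 2, against 7.67 in WT control. Ku80, its partner, stood at 9.86 in Sras mutant 1 and 10.06 in Sras mutant 2, against 8.35 in WT control. The ligase gene DNAlig4 stood at 8.37 in Sras mutant 1 and 8.39 in Sras mutant 2, against 7.23 in WT control. All 3 act in end joining. The nuclease gene mre11 stood at 10.44 in Sras mutant 1 and 10.53 in Sras mutant 2, against 8.93 in WT control. Its partners rad50 and nbs had differences of 1.37 and 1.39, and of 1.27 and 1.33. The checkpoint kinase genes lay closer to WT control, with 1.00 and 0.96 for tefu (ATM), 0.37 and 0.32 for mei-41 (ATR), 0.76 and 0.65 for lok (Chk2) and 0.32 and 0.26 for grp (Chk1). All 18 kept members lay above WT control in both tumors, where 57% of all kept genes did, and 6 were counted as higher, where 5.25% of all kept genes were. The list medians were 0.90 and 0.91, and 0.16 and 0.10 after identity centring, where no member was counted.

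**Figure D4:**
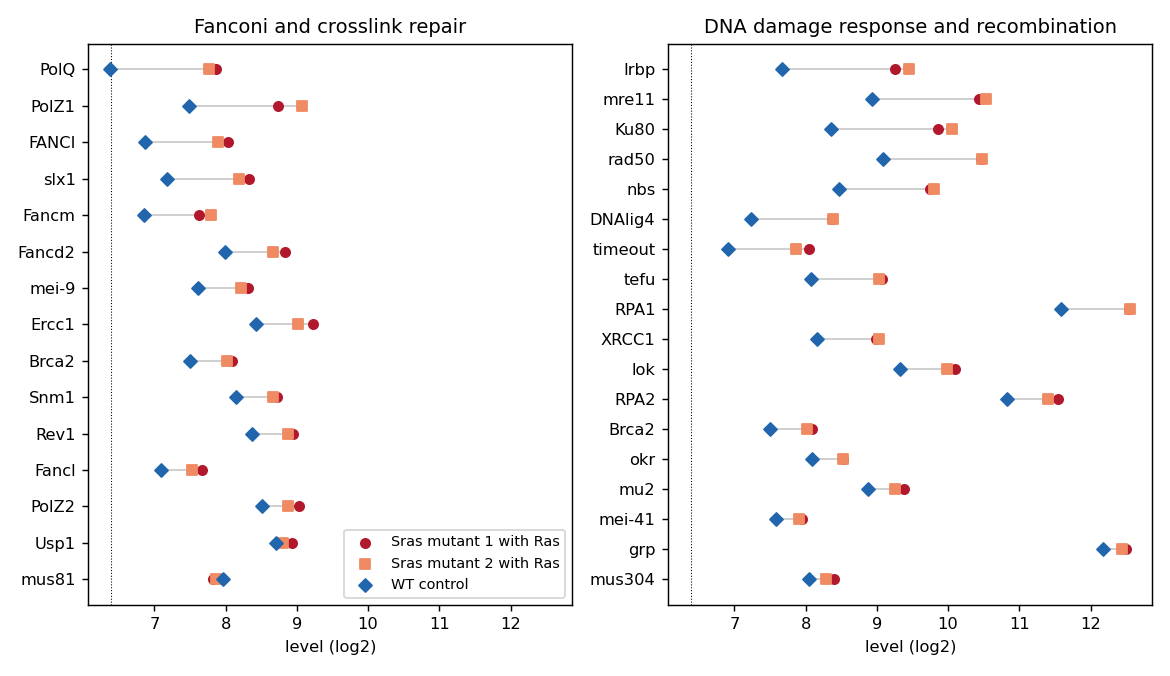
Levels (log2, horizontal axes) of the 15 kept Fanconi and crosslink repair genes (left panel) and the 18 kept genes of DNA damage response and recombination (right panel) in Sras mutant 1 with Ras (circles), Sras mutant 2 with Ras (squares) and WT control (diamonds). Genes run from the highest to the lowest by the smaller difference, and Brca2 stands in both panels. The 4 and 6 counted genes are the top ones in each panel, and mus81 lies below WT control in both tumors.

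The p53 gene stood at 10.58 in Sras mutant 1 and 10.82 in Sras mutant 2, against 9.25 in WT control, differences of 1.33 and 1.57. Corp, a target gene that restrains p53, stood at 7.66 in Sras mutant 1 and 8.17 in Sras mutant 2, against 6.53 in WT control. The list of p53 and irradiation response genes had 6 of 10 kept members higher and 2 lower. It shares Irbp, Ku80, mre11, Ilp8 and egr with the lists above, and skl and RnrL with lists below. The lower members were the pro-apoptotic gene skl, at 7.50 and 7.06 in the tumors, against 8.73 in WT control, and the sestrin gene Sesn, at 6.51 and 6.51, against 7.64. Its medians were 1.23 and 1.59, or 0.49 and 0.77 after identity centring, where 1 member was counted as higher and 3 as lower. In the cell death list none of 9 kept genes was higher and 2 were lower, skl and the Bcl-2 family gene Buffy, which stood at 6.38 and 6.33 in the tumors, against 7.66 in WT control. The initiator caspase gene Dronc had differences of 0.18 and 0.46.

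Of 21 listed genes of DNA replication 16 were kept, of 21 listed genes of mitosis 13 were kept, and none of these was counted. In lists this short that is near the shares over all kept genes, 5.25% higher and 10.0% lower. The 16 replication genes had medians of 0.49 and 0.38 (−0.25 and −0.43 after identity centring), led by RnrL, the large ribonucleotide reductase gene, at 12.17 and 12.18 in the tumors, against 11.23 in WT control. PCNA, the sliding clamp, had 0.51 and 0.39. The 13 mitosis genes had medians of 0.61 and 0.54 (−0.13 and −0.27 after identity centring), and CycB had 0.54 and 0.54. Of 6 kept genes of cell cycle arrest, trbl (Tribbles), which lowers the Cdc25 phosphatase String, was counted at 9.91 in Sras mutant 1 and 10.51 in Sras mutant 2, against 8.90 in WT control. The APC/C activator gene fzr lay at 9.16 and 9.03 in the tumors, against 9.94 in WT control.

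Senescence is often scored by lysosomal beta-galactosidase, and Gal, a fly beta-galactosidase gene and the 1 read here, was lower. Gal stood at 7.60 in Sras mutant 1 and 7.96 in Sras mutant 2, against 9.75 in WT control. The lysosomal mannosidase gene LManI stood at 5.91 in Sras mutant 1 and 5.44 in Sras mutant 2, against 7.91 in WT control, and the cholesterol transporter gene Npc1a stood at 10.42 and 10.46, against 11.49. The lysosomal regulator Mitf was the higher member, at 8.27 and 8.29 in the tumors, against 7.08 in WT control. Lamp1, a lysosomal membrane gene, had differences of −0.04 and −0.02. With 1 of 12 kept members higher and 3 lower, the list had medians of −0.20 and −0.20. After identity centring no member was higher, 6 were lower and the medians were −0.94 and −1.01. Whether other tissues in WT control set the lower members was not tested.

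Of 8 kept retinal determination genes, 5 were higher in both tumors and none lower on the quantile scale. The Pax6 gene ey stood at 10.45 in Sras mutant 1 and 10.31 in Sras mutant 2, against 8.68 in WT control. Its partner so stood at 10.24 in Sras mutant 1 and 10.04 in Sras mutant 2, against 8.57 in WT control. The phosphatase and coactivator gene eya stood at 11.14 in Sras mutant 1 and 10.83 in Sras mutant 2, against 9.63 in WT control. Optix and toy completed the counted genes, and eyg had differences of 0.88 and 1.01. The genes dac and tsh had differences of 0.38 and 0.05, and of −0.38 and −0.21. The list medians were 1.19 and 1.13, or 0.45 and 0.32 once centred on the identity genes, of which these are a part, and no member was then counted as higher.

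Of the antennal and head genes 1 of 10 was counted, the bHLH-PAS gene ss, at 8.49 in Sras mutant 1 and 8.69 in Sras mutant 2, against 6.65 in WT control. The antennal selector Dll stood at 10.10 and 10.24 in the tumors, against 9.72. Photoreceptor genes were of both kinds, with 4 of 17 higher and 1 lower. The rhabdomere gene chp stood at 10.84 in Sras mutant 1 and 10.63 in Sras mutant 2, against 7.99 in WT control. The transcription factor genes ro, lz and gl were higher too, with differences of 1.67 and 1.19 for ro from a WT control level of 6.34, and with gl at 10.35 and 10.17, against 9.13. The neuronal genes elav and pros did not share that direction: elav had differences of −0.86 and −0.78, and pros was lower at 8.48 and 8.39 in the tumors, against 10.04 in WT control.

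Heat shock and detoxification genes were among the higher ones. Hsp68 stood at 11.73 in Sras mutant 1 and 12.54 in Sras mutant 2, against 8.76 in WT control. The small heat shock gene Hsp26 stood at 13.23 in Sras mutant 1 and 13.75 in Sras mutant 2, against 11.83 in WT control. The cochaperone gene stv stood at 9.63 in Sras mutant 1 and 10.22 in Sras mutant 2, against 8.27 in WT control. With DnaJ-1 these made 4 of 7 kept members, all 4 higher in Sras mutant 2 than in Sras mutant 1, and the list medians of 1.11 and 1.32 were 0.36 and 0.51 after identity centring, where 1 member was counted as higher. The constitutive chaperone gene Hsc70-4 had differences of 0.10 and 0.16, and Hsp27 had −0.37 and −0.12. None of 11 kept genes of the unfolded protein response was counted. In a list this short that is near the shares over all kept genes, 5.25% higher and 10.0% lower. The endoplasmic reticulum chaperone genes Hsc70-3 and Gp93 had differences of −0.16 and −0.07, and of −0.19 and −0.11, and PEK had 0.81 and 0.92.

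Cytochrome P450 and glutathione transferase genes were counted in 5 of 18 cases of the detoxification list, all higher. Cyp4p1 stood at 10.78 in Sras mutant 1 and 11.41 in Sras mutant 2, against 7.41 in WT control. Cyp6a20 stood at 7.73 in Sras mutant 1 and 8.34 in Sras mutant 2, against 4.17 in WT control. The transferase gene GstE6 stood at 10.73 in Sras mutant 1 and 10.71 in Sras mutant 2, against 8.35 in WT control. GstD3 and GstE5 were the others. Cyp6a20 and GstE5 lay below the filter value in WT control, as did GstD2, which was not counted. These 3 were kept only through the tumors, so the share and medians of this list depend on the filter. The list was also chosen with earlier results of these data known. The regulator genes cnc and Keap1 lay near WT control, with differences of −0.20 and −0.06, and of 0.14 and 0.22. GstD1, a commonly used reporter of oxidative stress, stood at 14.06 and 14.16 in the tumors, against 13.90. The list medians of 0.43 and 0.48 became −0.31 and −0.33 after identity centring, where the same number, 5, was counted as higher. The families as a whole had no shared direction: of 30 kept genes with a Cyp name, 9 were higher and 9 lower, and of 12 kept genes with a GstE name, 2 were higher and 3 lower (GstE2, GstE3 and GstE14).

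Toll ligands and receptors had 2 of 14 kept members higher, where 5.25% of all kept genes were. These were spz3, as above, and the NF-kappaB gene dl. The gene dl stood at 9.66 in Sras mutant 1 and 9.84 in Sras mutant 2, against 7.96 in WT control. The receptor gene Tl had differences of −0.45 and −0.47, and the classical ligand gene spz −0.50 and −0.07. Among 18 kept tetraspanins, Tsp42Ed was higher with differences of 1.99 and 2.29 from 7.72 in WT control, and Tsp74F and Tsp29Fb were lower. These counts were near the shares over all kept genes, 5.25% higher and 10.0% lower. Over all 23 kept genes with a Tsp name, 1 was higher (4.35%) and 7 lower (30.4%). The other lower ones were Tsp42Eh, Tsp42Ek, Tsp42Eo, Tsp42Ep and Tsp5D. Tsp74F stood at 8.02 in Sras mutant 1 and 8.01 in Sras mutant 2, against 10.92 in WT control.

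Genes of the ecdysone response, which times metamorphosis, were mostly at or below WT control. Edg91, a late cuticle gene, stood at 5.97 in Sras mutant 1 and 6.14 in Sras mutant 2, against 10.09 in WT control. Eip78C, an early-late nuclear receptor gene, stood at 6.99 in Sras mutant 1 and 7.56 in Sras mutant 2, against 9.73 in WT control. The nuclear receptor gene ftz-f1 went the other way, at 8.66 in Sras mutant 1 and 8.52 in Sras mutant 2, against 6.45 in WT control. The receptor genes EcR and usp were not counted, with differences of −0.30 and −0.37, and of −0.07 and −0.14. The list had 3 of 13 kept members lower and 1 higher, with medians of −0.63 and −0.33. After identity centring 8 members were lower, and the medians were −1.37 and −1.14. The inducible gene ImpE3 stood at 8.70 in Sras mutant 1 and 10.07 in Sras mutant 2, against 10.92 in WT control, and was past 2-fold in mutant 1 alone.

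The kept genes listed for basic metabolism and ribosome production stayed within 2-fold. None of 12 ribosome biogenesis genes, 9 glycolysis genes or 16 genes of the respiratory chain was counted. In each list, which is short, that is near the shares over all kept genes, 5.25% higher and 10.0% lower. All 12 ribosome biogenesis genes lay above WT control in both tumors, where 57% of all kept genes did, with medians of 0.60 and 0.61, and at −0.14 and −0.20 after identity centring. Fib, the nucleolar methyltransferase gene fibrillarin, stood at 12.11 and 12.11 in the tumors, against 11.36 in WT control. The respiratory chain medians, 0.10 and 0.02, were close to those of all kept genes, 0.13 and 0.10, and were −0.64 and −0.79 after identity centring. Glycolysis had 0.03 and 0.35, or −0.71 and −0.46 after identity centring, and the aldolase gene Ald1 differed between the tumors, with 11.65 in Sras mutant 1 and 12.10 in Sras mutant 2, against 11.62 in WT control.

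**Figure D5:**
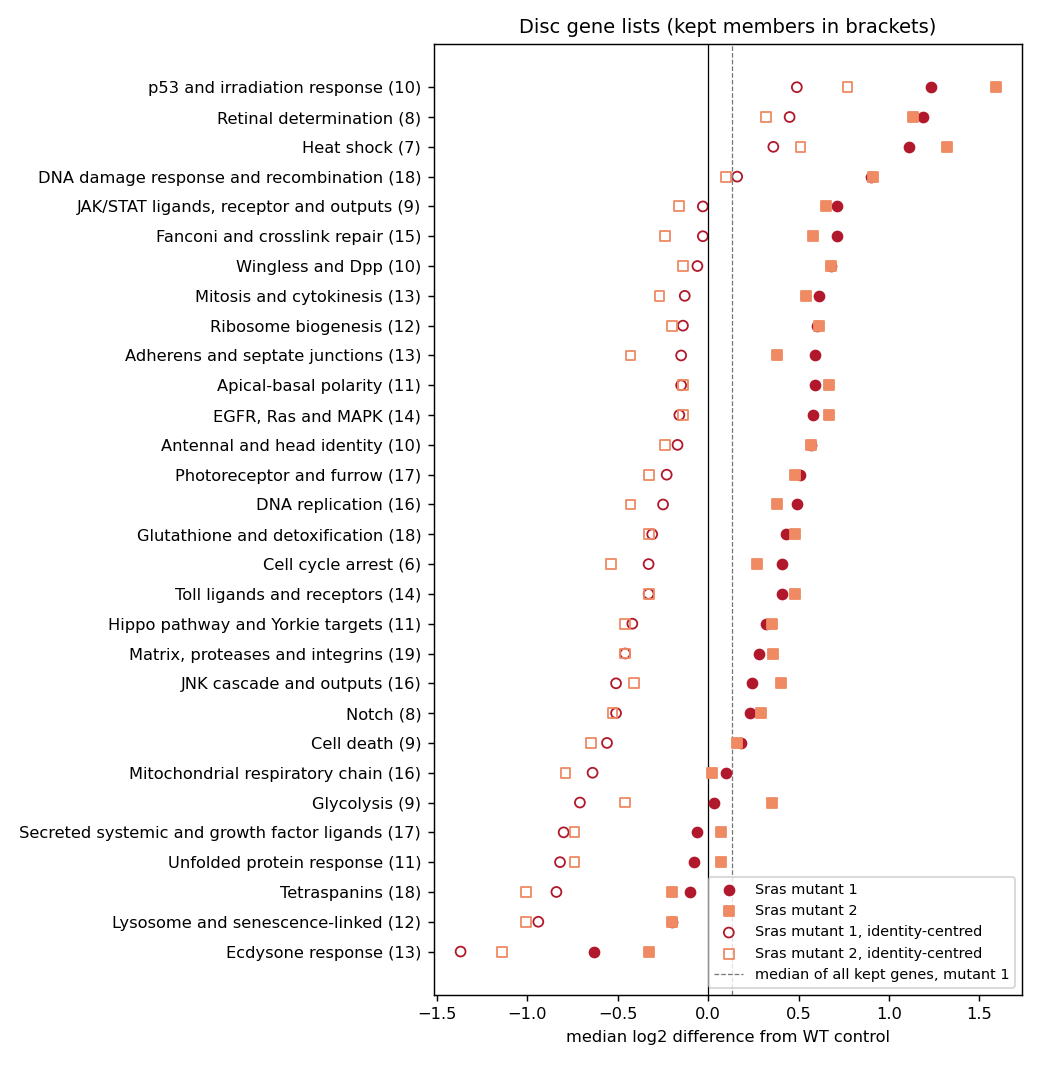
Median log2 difference from WT control of each disc gene list in Sras mutant 1 with Ras (circles) and Sras mutant 2 with Ras (squares), with the number of kept members in brackets. Filled marks are on the quantile scale, hollow marks follow centring on the identity genes, and the dashed line is the median of all kept genes in Sras mutant 1, 0.13. Medians of p53 and irradiation response, heat shock and DNA damage response lie above 0 on both scales in both tumors. The retinal determination medians do too, but these genes are among those that set 0 on the identity-centred scale.

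Among the remaining named higher genes, the cuticle gene TwdlE stood at 11.53 in Sras mutant 1 and 12.05 in Sras mutant 2, against 8.48 in WT control. The chitinase gene Cht6 stood at 11.30 in Sras mutant 1 and 11.71 in Sras mutant 2, against 8.13 in WT control. Tdc1, a tyrosine decarboxylase gene, stood at 9.59 in Sras mutant 1 and 10.07 in Sras mutant 2, against 6.55 in WT control. These cuticle and chitinase genes were higher while most larval cuticle markers were lower. The villin-like gene qua stood at 10.42 in Sras mutant 1 and 10.19 in Sras mutant 2, against 7.78 in WT control. The transcription factor gene fru stood at 9.29 and 9.19 in the tumors, against 6.74, and the mitochondrial ADP/ATP carrier gene Ant2 at 9.12 and 9.37, against 6.74. Rcd2, SmydA-7, Ekar, sprt, inaC and BBS8 completed the named higher genes, with differences between 1.61 in sprt and 3.70 in Rcd2. In 285 of the 400 higher genes Sras mutant 2 lay above Sras mutant 1.

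The other named lower genes came from several tissues. Ddc, the dopa decarboxylase gene of cuticle hardening and dopamine synthesis, stood at 7.43 in Sras mutant 1 and 7.48 in Sras mutant 2, against 11.69 in WT control. The small heat shock gene l(2)efl stood at 8.27 in Sras mutant 1, against 13.22 in WT control, with differences of −4.96 and −5.22, while 4 of the 7 kept heat shock genes above were higher. The peptidoglycan recognition gene PGRP-SB2 stood at 5.49 in Sras mutant 1 and 5.39 in Sras mutant 2, against 11.12 in WT control. Each was over 8-fold lower in both tumors. Alp1, CtsK2, Obp56e, Cpr49Ag, fau and Pig1 also were, with differences between −6.44 in Alp1 and −4.22 in Cpr49Ag.

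Lower genes were next to each other on the chromosome in some cases. Of 762 lower genes that could be placed, 322 (42.3%) had a kept neighbor that was also lower, where 18.3% of all placed genes had a lower neighbor. Of 398 higher genes, 58 (14.6%) had a higher neighbor, where 10.2% of all placed genes did. These shares were not tested. Runs of lower genes included 6 around the Eig71E cluster, 6 from CG14265 to Sgs4 with the genes ng1, ng2, ng3 and Pig1, and 5 odorant-binding protein genes from Obp56a to Obp56h. The 1 run of 4 higher genes was Cyp6a17, Cyp6a23, Cyp6a20 and Kank, of which Kank is no P450 gene and has probe sets that differ in direction. Several runs hold genes of 1 family, and their probes were not checked for matches to more than 1 of them. By family name, 17 of 30 kept Cpr cuticle genes and 9 of 14 Obp genes were lower, and no gene of 18 RpL, 13 RpS or 31 eIF names was counted.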

How the data were processed

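RNA of 2 tumor samples and 1 disc sample was measured on biotin-labelled expression arrays, per the labels. The authors deposited 1 table of log2 values for 18952 probe sets; that they are log2 follows from their range, and the sources used here do not give the background correction, normalization or software. Precision is limited by the number of arrays. Members and gene lists were chosen with earlier results of these data known. The 3 arrays were quantile normalized. The platform annotation gave 1 symbol for 13647 probe sets, of which 13544 were updated through a Release 6 gene table, used for names and neighbor order only; 402 had several symbols. Each of 11982 genes took its brightest probe set by mean. Differences of 2-fold were counted, with no test. The 37 lists named 606 entries. Named genes were the 15 highest and 15 lowest by the smaller difference, 8 that crossed the filter value each way, up to 3 each way per list, all kept Fanconi genes and the 4 widest gaps between tumors; members outside this rule were picked for their role after values were seen. Ras85D was not analysed here. Counting was tested on simulated data. Alternatives were other scalings, filters, thresholds, probe set means, single mutants and, added after seeing the data, genes with 1 probe set. Python 3.11.15, NumPy 2.4.6, pandas 2.3.3 and Matplotlib 3.10.9 were used.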

Additional observations from a re-analysis of the deposited data

Results flagged for a closer look

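A few values lay on opposite sides of WT control in the tumors, and none of these differences was tested. The median of the secreted ligand list was −0.06 in Sras mutant 1 and 0.07 in Sras mutant 2, and that of the unfolded protein response list was −0.08 and 0.07 (−0.82 and −0.74 after identity centring). Among named genes, ksr, a scaffold gene of the Ras cascade, had 0.03 in Sras mutant 1 and −0.02 in Sras mutant 2. The Hippo kinase gene hpo had 0.12 and −0.01, and the replication origin gene Orc5 had 0.13 and −0.03. The polarity gene Patj had −0.02 and 0.03, and the catenin gene p120ctn 0.03 and −0.04. Each of these is smaller than the SD of 0.245 between the Sras arrays.

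Probe sets without a single gene name also carried differences. Of 1155 that passed the filter value, 82 (7.1%) were at least 2-fold higher and 90 (7.79%) at least 2-fold lower in both tumors. Over all kept genes the shares were 5.25% and 10.0%.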

How the results depend on the processing

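The 400 higher and 764 lower genes depended most on centring, filter and threshold. Centring on identity genes gave 99 and 1631. A filter on the mean at the 50th percentile gave 243 and 361 of 5988 genes, by construction fewer. A 1.5-fold threshold gave 1070 higher genes and a 3-fold one 129 higher and 473 lower. The counts stayed within 1.5 times under the other settings: 409 and 758 with the values as deposited, 496 and 700 after median centring, 398 and 759 with quantile normalization over 5 arrays, 366 and 731 with probe set means, 413 and 819 without a filter, 398 and 721 without members of the other-tissue lists, 1081 lower genes at 1.5-fold, either mutant alone, and 337 and 687 for genes with 1 probe set, a setting chosen after seeing the data. No counted named gene changed sign under the scalings and the probe set mean. Identity centring could not change such a sign, since its shifts of 0.74 and 0.81 are below the threshold of 1.0. The cause of the shift under identity centring was not tested. No paired analysis was possible because each group had 1 array, and no replicate could be left out. The planned promoter motif search was not run, since no promoter sequences were used here. Without detection calls, values near 6.39 carry little information on fold size.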

Other observations

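The gene groups here were chosen after the values were seen and are given as values only, and 5.25% of all kept genes were higher and 10.0% lower in both tumors. Of 12 kept genes of ecdysone and juvenile hormone synthesis, which the ring gland expresses, 10 were lower in both tumors. The gene spok, a step of ecdysone synthesis, stood at 8.86 in Sras mutant 1 and 7.39 in Sras mutant 2, against 12.09 in WT control. The gene sad, a later step, stood at 9.31 and 9.22 in the tumors, against 11.52 in WT control. Of 19 kept neuropeptide and peptide hormone genes, 12 were lower and all 19 lay below WT control in both tumors, with Ilp2, an insulin-like peptide of brain cells, at 6.70 and 6.24, against 9.17. Neuroblast genes were lower in 8 of 14 cases, with wor at 7.16 and 6.85 in the tumors, against 9.61. Of the neuroblast genes 4 lay above WT control in both tumors by any amount. No neuroblast or neuropeptide gene was counted as higher. Of 10 kept genes of transmitter synthesis and transport, 8 were lower and 2 higher (Tdc1 and Tdc2). Their medians were −1.31 and −1.54, or −2.05 and −2.35 after identity centring. In this list VAChT, ChT, VGAT and Vmat lay below the filter value in both tumors. So did nvd and dib of the hormone synthesis genes, Ilp5, Crz, CCHa2 and AstC of the peptide genes, and cas of the neuroblast genes. All of these were kept only through WT control, so the shares and medians of these lists depend on the filter. The neuron and glia list had 6 of 12 kept members above WT control, so it did not share the lower direction of these lists. The part of ring gland or brain RNA in other results was not tested. Of 8 listed Hox genes 3 were kept, and these divided. Dfd, which patterns the head, stood at 8.94 in Sras mutant 1 and 9.07 in Sras mutant 2, against 7.22 in WT control. Scr stood at 7.57 and 8.42, against 10.16, and Antp at 4.25 and 4.45, against 7.46. Antp lay below the filter value in both tumors and was kept only through WT control.

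Hedgehog genes had 2 of 10 kept members higher. The receptor and target gene ptc stood at 7.98 in Sras mutant 1 and 7.95 in Sras mutant 2, against 5.90 in WT control, and the coreceptor gene boi at 10.72 and 10.80, against 9.60. The list medians of 0.51 and 0.60 became −0.23 and −0.21 after identity centring. Of 21 listed phototransduction genes 10 were kept and 7 were higher, among them chp, named above. Of the higher ones CarT, Pph13, ninaB and inaC lay below the filter value in WT control. They were kept only through the tumors, so the share and medians of this list depend on the filter. The transporter gene CarT stood at 8.03 and 8.13 in the tumors, against 5.10 in WT control. The list medians were 1.71 and 1.45, or 0.97 and 0.63 after identity centring. Of 18 listed cilium genes 7 were kept and 3 were higher, among them Oseg1 at 8.34 and 8.37 in the tumors, against 7.26. The other higher ones, BBS8 and IFT54, lay below the filter value in WT control, as did Oseg6, which was not counted. BBS8, IFT54 and Oseg6 were kept only through the tumors, so the share of this list depends on the filter too. The cilium medians of 0.78 and 0.62 became 0.04 and −0.20 after identity centring. Mitochondrial iron-sulfur and DNA maintenance genes had 5 of 8 higher, with the protease gene Lon at 10.15 and 10.34 in the tumors, against 8.90, and the cysteine desulfurase gene Nfs1 with differences of 1.16 and 1.34. Medians of these 8 genes were 1.08 and 1.08, or 0.34 and 0.27 after identity centring. Genes of pigment and cuticle tanning were lower in 9 of 11 cases, with the GTP cyclohydrolase gene Pu at 7.40 and 7.17 in the tumors, against 10.76, and amd was the higher one at 8.59 and 8.53, against 6.44. Of the lower ones yellow-d2 lay below the filter value in both tumors and was kept only through WT control.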
